A study of Zea mays with 15 samples.

Results

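Of 17621 maize probe sets, 49 gave a lower signal after ethephon than after water at both 24 h and 48 h, with no overlap between the arrays. They were chosen by the measured values themselves. A probe set counted when its mean signal over the 15 arrays was at least 218, when all 3 ethephon arrays of 24 h lay below all 3 water arrays of 24 h, and when the same held at 48 h. The filter kept 10577 probe sets, and 50 of them met the rule. Among these, 1 probe set of the cytokinin response regulator gene RR7 was left out by the rule, as were all 3 probe sets of the expansin gene expB8, of which 0 met it. The 49 carried 42 different identifier numbers, because some names differ only in their last part. Just 9 carried a gene name, for 7 genes, and 40 had none in the annotation used. A further 24 probe sets met both non-overlaps with a mean signal below the filter.

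The arrays hold RNA of the meristem of internode number 7 of greenhouse-grown Zea mays seedlings that had 8 leaves, the jointing stage at which the stem starts to lengthen. The labels name no line, mutation or transgene. Ethephon at 600 mg/L was sprayed on 100 seedlings and water on another 100. The 5 groups, each of 3 arrays, are CK-0 h (neither spray), CK-24 h and CK-48 h (water), and Eth-24 h and Eth-48 h (ethephon). Every array held the pooled RNA of 3 seedlings, so the spread is that of such pools within 1 experiment, and 3 arrays a group limit the precision. All groups shared the greenhouse, and the 0 h group is the common start of both sprays.

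Ethephon breaks down inside plant tissue and releases ethylene, a gaseous hormone. Ethylene binds receptors in the endoplasmic reticulum membrane, which shuts off a kinase and lets transcription factors of the EIN3 and ERF families act in the nucleus. In maize ethephon is sprayed to obtain shorter, stiffer stems. The intercalary meristem at the base of an internode supplies the dividing and elongating cells from which stem length comes, and such cells need protein synthesis, nucleotides and, as plastids form, import of proteins into them.

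Signals were linear MAS5 values. Array medians ran from 297.8 to 370.4. For 0 of 15 arrays was the most similar array one of the same group. The measure of likeness behind this count is not given here, so it does not show how alike the arrays of a group were. A 3'/5' index was formed from 5 control transcripts as log2 of the 3' signal over the 5' signal, averaged; it rises where RNA is less intact or less fully labelled. It was 1.64 ± 0.782 (SD, n = 3) at 0 h. For water it was 2.88 ± 0.322 at 24 h and 2.05 ± 0.387 at 48 h. For ethephon it was 3.01 ± 0.151 at 24 h and 2.73 ± 0.0857 at 48 h. At 48 h every ethephon array had a higher index than every water array. At 0 h array 2 stood apart with 0.743, against 2.01 and 2.17. Signals of the spike-in LysX at its 5' end were 21.1 to 34.4 on the 24 h arrays and 43.5 to 72.7 on the others. The tissue label was set against markers: the shoot meristem homeobox gene kn1 read 3540.0 on average and the related lg3 944, while abph1, lg4b and zfl1 read 26.0 to 95.2, below the filter. Both PCNA genes, which mark DNA replication, were above it (pcna1 1174, pcna2 1519), while cyc1, cyc2 and cyc3, of mitotic cyclins, read 55.8 to 101.5.

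**Figure D1:**
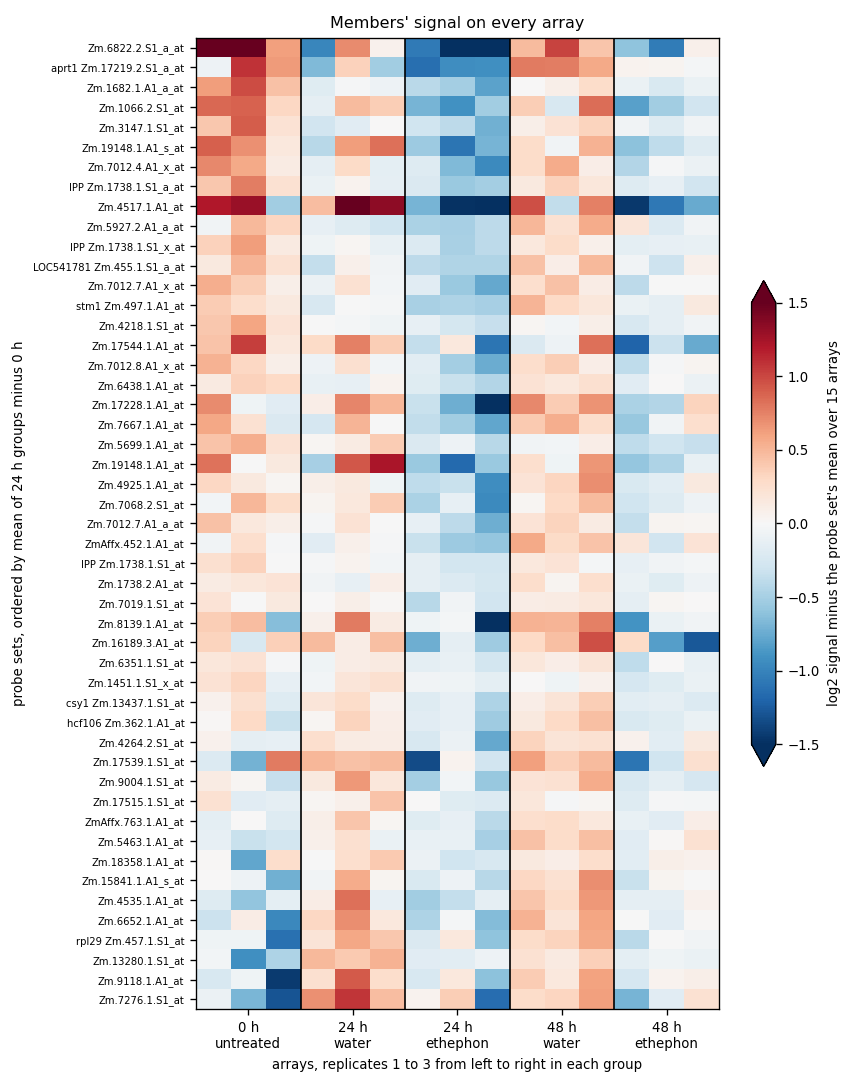
Log2 signal of each of the 49 probe sets (rows, ordered by the mean of the 24 h groups minus 0 h) on each of the 15 arrays (columns, replicates 1 to 3 within each group), minus the mean of that probe set over all arrays; colours end at -1.5 and 1.5. The ethephon columns are blue beside red or pale water columns because the probe sets were selected on that difference, while the 0 h columns run from red at the top to blue at the bottom.

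After ethephon the 49 signals were lower mostly by a modest amount. These sizes are descriptions, since the same values chose the probe sets, and no test applies to them. At 24 h the water level was 1.43 times the ethephon level at the median (range 1.13 to 6.12), 6 of 49 reached 2-fold and 27 stayed under 1.5-fold. At 48 h the median was 1.34 (1.10 to 2.92), 3 of 49 reached 2-fold and 37 stayed under 1.5-fold. The difference was the larger at 24 h for 38 probe sets and the larger at 48 h for 11. On the log2 scale the median difference of the 49 was -0.51 at 24 h and -0.42 at 48 h, while over all 10577 kept probe sets it was -0.03 and 0.02. For scale, 10.8% of kept probe sets had all ethephon arrays below all water arrays at 24 h, 3.9% at 48 h, and 0.473% at both times. Across all genes limma with Benjamini-Hochberg adjustment called 0 probe sets between ethephon and water at either time (lowest adjusted p = 0.375 at 24 h and 0.994 at 48 h), with 951 and 343 at an unadjusted p under 0.05. Because these were bulk tissue samples, fewer cells of a type and less RNA per cell cannot be told apart.

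Members' levels differed between arrays of 1 group. Centring each probe set on its mean over the 15 arrays, the median of the 49 was 0.21, 0.25 and 0.09 (log2) on the 0 h arrays. After water it was -0.01, 0.24 and 0.06 at 24 h and 0.26, 0.23 and 0.42 at 48 h. After ethephon it was -0.24, -0.28 and -0.54 at 24 h and -0.23, -0.14 and -0.05 at 48 h. All 6 ethephon medians thus lay below all water and all 0 h medians. The choice of the probe sets fixes this for the water arrays of the same time, but not for the 0 h arrays. Within the 24 h ethephon group array 3 had the lowest signal for 36 of the 49, and within the 48 h ethephon group array 1 for 33. Within the 0 h group array 3 was the lowest for 32, and within the 24 h water group array 1 for 30. Over all kept probe sets the centred medians on these arrays were, in the same order, -0.03, 0.07, 0.07 and 0.06. No shares over all kept probe sets stand beside these counts, and the 49 include repeats that share an identifier number.

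The 0 h level, which the rule did not use beyond the filter, divides the 49 into 3 kinds. Compared with the 24 h groups, the 0 h mean lay above the water mean for 28 probe sets, between the water and ethephon means for 15, and below the ethephon mean for 6. At 48 h the counts were 19, 19 and 11. At both times alike, 17 started above water, 8 between and 6 below ethephon. A further 11 started above water of 24 h but lay between the groups of 48 h, 5 went from between to below ethephon, and 2 from between to above water. Single arrays overlapped more than means. All 3 arrays of 0 h lay above all 3 ethephon arrays for 29 probe sets at 24 h and 22 at 48 h, but above all water arrays for only 10 and 3. They lay below all water arrays for 10 at 24 h and 13 at 48 h, and below all ethephon arrays for 0 and 1. No shares over all kept probe sets stand beside the counts of this paragraph, so they only describe the 49. The choice of probe sets with low ethephon arrays itself favours counts with 0 h above ethephon.

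**Figure D2:**
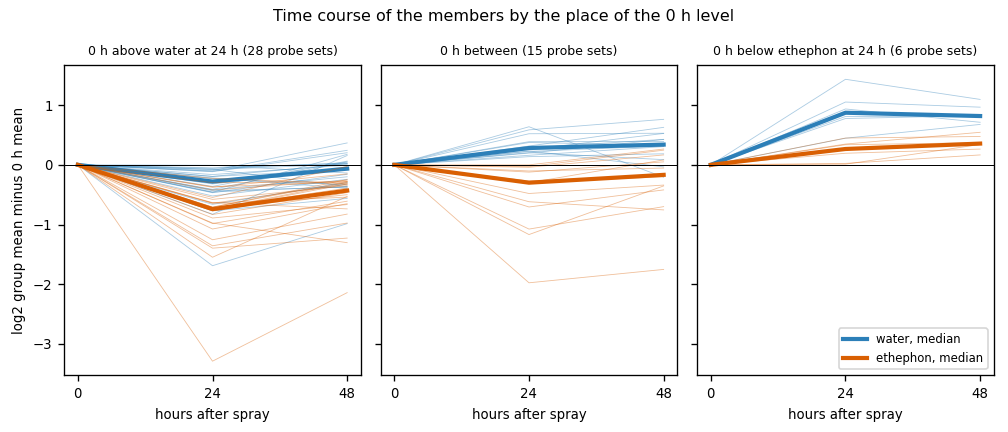
Time course of the 49 probe sets, in 3 panels by the place of the 0 h mean at 24 h: 28 above water, 15 between and 6 below ethephon. The vertical axis is the log2 group mean minus the 0 h mean and the horizontal axis is hours after spray; thin lines are probe sets and thick lines medians, blue for water and orange for ethephon. At 24 h both medians lie below 0 in the left panel, on either side of 0 in the middle panel and above 0 in the right panel.

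With water the 49 lay near their 0 h level at the median. The median log2 difference from 0 h was -0.07 with water at 24 h (28 below 0, 21 above) and 0.06 at 48 h (19 below, 30 above). With ethephon it was -0.63 at 24 h (43 below, 6 above) and -0.32 at 48 h (38 below, 11 above). The range was wide in both: -1.69 to 1.43 with water and -3.29 to 0.45 with ethephon at 24 h. For all kept probe sets the same medians were 0.05 and 0.03 with water and 0.02 and 0.06 with ethephon. These differences share the 0 h arrays, and part of each is the ethephon difference that chose the probe sets.

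The choice of the probe sets did not wholly fix the comparison of both sprays averaged against 0 h. That average still holds the ethephon groups. Where the water level stays at its 0 h level, the ethephon difference alone puts the average below 0. With water alone, 28 of the 49 lay below 0 at 24 h and 19 at 48 h. At 24 h, 12 of the 49 fell from 0 h and 0 rose (limma, adjusted p below the threshold of 0.05 over all kept probe sets, lowest 0.0012), where 2.86% of all kept probe sets were called lower and 3.37% higher. More lay below 0 than were called: 36 of 49, or 73.5%, against 46.8% of all, with a median of -0.40 against 0.03. The 49 carry only 42 identifier numbers and all share the same 0 h arrays, so they are not independent of each other. At 48 h, 2 of the 49 fell and 0 rose, against 0.662% called lower and 0.945% called higher over all. There 31 of 49 (63.3%) lay below 0 against 45.1% of all, and the median was -0.12 against 0.04. Between 24 h and 48 h 0 of the 49 were called, as were 0.0% of all (lowest adjusted p = 0.182, 638 at an unadjusted p under 0.05, 17 of them among the 49). There 42 of the 49 (85.7%) had the higher mean at 48 h, against 53.4% of all. The rule favours probe sets with a small spread, 0.22 against 0.33 (median within-group SD, log2), so their p-values may be too small.

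These calls changed when single arrays were left out. The number at 24 h dropped most without array 2 of the 0 h group and rose to 14 of the 49 without array 3 of that group. Without array 2 of the 0 h group, the one with the low 3'/5' index, 1 of the 49 was called lower at 24 h and 0 at 48 h, while over all probe sets the calls dropped from 658 to 124 and from 170 to 87. Of the 49, 6 were called lower at 24 h without 0 h array 1, 6 without water array 1 of 24 h, 6 without ethephon array 2 of 24 h and 7 without ethephon array 3 of 24 h. Over all probe sets 292 were called without the first of these arrays, 370 without the second and 356 without the third. At 48 h 0 of the 49 were called without 0 h array 1, and 1 without any 1 ethephon array of 48 h, water array 1 or 2 of 48 h or water array 2 of 24 h. Over all probe sets 104 were called at 48 h without 0 h array 1 and 112 without water array 1 of 48 h. Of the 49, 1 was called higher at 24 h without 0 h array 1 or ethephon array 3 of 24 h. With the index as a covariate 0 of the 49 were called at either time, and over all probe sets 5 and 46 were. Without 0 h array 2, 37 of 49 lay below 0 at 24 h (75.5%, against 53.5% of all kept) and 32 at 48 h (65.3% against 52.4%). With the covariate 34 lay below 0 at 24 h, against 59.1% of all, with a median of -0.27, and 31 at 48 h, against 53.8% of all. Calls over all probe sets were lower in 45.9% at 24 h and 41.2% at 48 h, but in 64.0% and 52.0% when every array was scaled to the same median, which moved the median of all kept probe sets from 0.03 to -0.08 at 24 h and from 0.04 to -0.06 at 48 h. On that scale 40 and 36 of the 49 lay below 0, as did 57.5% and 56.4% of all kept probe sets. The 24 h arrays also shared the low LysX signal, whose part in the differences from 0 h was not tested.

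**Figure D3:**
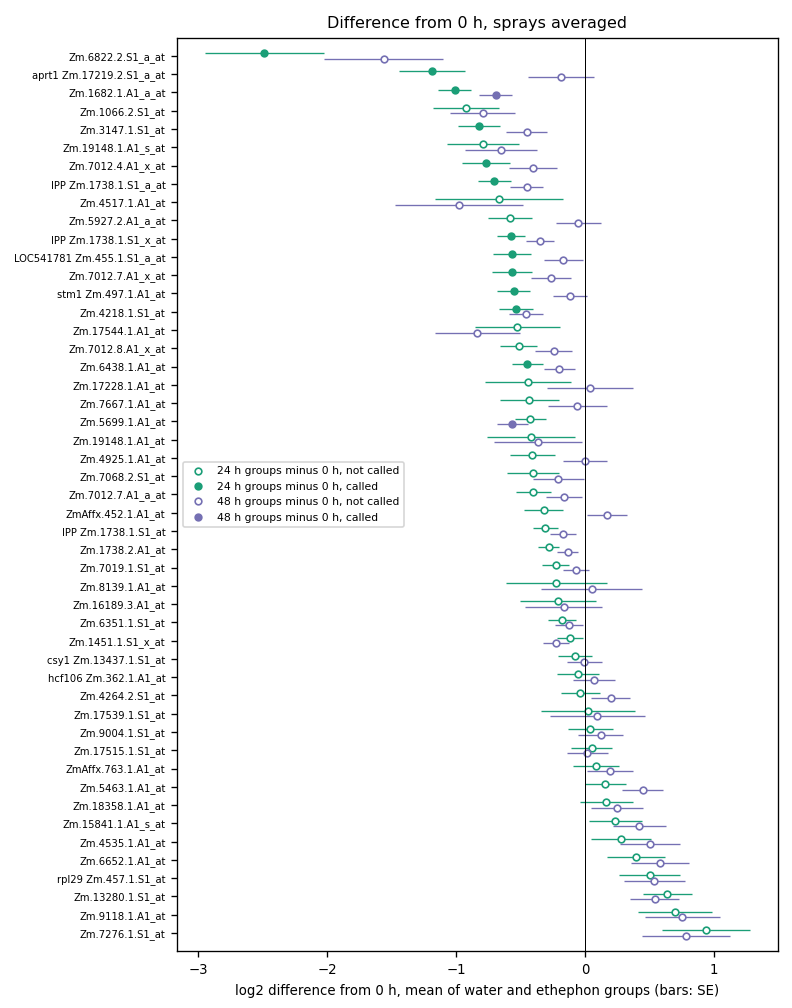
Log2 difference from 0 h of the mean of the water and ethephon groups for each of the 49 probe sets, green at 24 h and purple at 48 h, with limma standard errors; filled points were called. The 12 filled green points and 2 filled purple points all lie left of 0, and the lowest probe sets of the panel lie right of 0 at both times without a call.

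The named genes csy1 and hcf106 serve protein transport into the thylakoid, the internal membrane of the chloroplast. The gene csy1 (probe set Zm.13437.1.S1_at, symbol LOC542482) encodes the plastid SecY, the channel of the thylakoid Sec pathway, and hcf106 (Zm.362.1.A1_at, LOC732790) encodes the TatB-type subunit of the twin-arginine pathway, which carries folded proteins. The signals of csy1 at 0 h were 694, 783 and 579. At 24 h they were 752, 803 and 692 with water and 579.9, 609.6 and 482 with ethephon. At 48 h they were 712, 759.8 and 855 with water and 596, 607 and 574 with ethephon. The 0 h arrays overlapped those of both sprays at 24 h, and the water mean lay above the 0 h mean at both times. The log2 difference, ethephon minus water, of csy1 was -0.43 ± 0.16 (SE) at 24 h and -0.39 ± 0.16 at 48 h, so the water level was 1.35 and 1.31 times the ethephon level. For hcf106 the 0 h signals were 658, 801 and 515. They were 665, 817 and 698 with water and 575, 596 and 451 with ethephon at 24 h. By 48 h they were 721, 799 and 889 with water and 554, 572 and 605 with ethephon. Again the 0 h arrays overlapped those of both sprays at 24 h. The log2 difference, ethephon minus water, of hcf106 was -0.43 ± 0.18 (SE) at 24 h and -0.47 ± 0.18 at 48 h, so the water level was 1.35 and 1.39 times the ethephon level. Against 0 h neither gene was called when the sprays were averaged (limma, csy1 -0.08 ± 0.14, adjusted p = 0.759 at 24 h and -0.01 ± 0.14, adjusted p = 0.985 at 48 h; hcf106 -0.06 ± 0.16, adjusted p = 0.864 and 0.07 ± 0.16, adjusted p = 0.862). The deviations of both genes from their group means ran together over the 15 arrays (r = 0.925, a description, since the arrays share their RNA and scaling).

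The photosynthesis genes on the array lay on both sides of 0. Of 10 genes listed, 8 passed the filter, and 2 of these had all ethephon arrays below all water arrays at 24 h and 2 at 48 h, against 10.8% and 3.9% of all kept probe sets. They had a median log2 ethephon difference of -0.03 at 24 h and -0.05 at 48 h, and 1 of them, hcf106, was among the 49. The partner of hcf106 in the twin-arginine pathway, tha4, lay at 0.02 and 0.03, and the related tha9 at -0.48 and -0.07. Against 0 h, tha9 rose (limma, log2 1.54 at 24 h, adjusted p = 0.000656, and 1.55 at 48 h, adjusted p = 0.000447), and no other gene of the list was called. The Rubisco small subunit gene ssu1 lay at -0.04 and -0.04. The widest values of the list, picked after they were seen, were 0.87 at 24 h for rca1, of Rubisco activase, and at 48 h 0.81 for fnr1, of a ferredoxin-NADP reductase, and -0.58 for psad1, of a photosystem I subunit.

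The gene aprt1 (Zm.17219.2.S1_a_at, LOC542148) encodes adenine phosphoribosyltransferase, which salvages adenine to AMP and can also convert cytokinin bases to their nucleotides. Its signals at 0 h were 468, 1045 and 766, a wide spread. At 24 h it read 311, 628 and 344 with water and 224, 258 and 259 with ethephon. At 48 h it read 847, 839 and 729.6 with water and 511, 505 and 483 with ethephon. All 24 h arrays except water array 2 lay below all 0 h arrays, and at 48 h the water arrays were back within the range of 0 h, while ethephon arrays lay at its lower end. The log2 difference, ethephon minus water, of aprt1 was -0.72 ± 0.29 (SE) at 24 h and -0.69 ± 0.29 at 48 h, so the water level was 1.65 and 1.61 times the ethephon level. Averaged over the sprays aprt1 fell by 1.19 on the log2 scale from 0 h to 24 h (SE 0.25, limma adjusted p = 0.0195, 0.00946 to 0.76 over the alternatives). Without 0 h array 2, with array weights or with the index as covariate that call was lost. At 48 h the difference from 0 h was -0.19 ± 0.25, adjusted p = 0.747. Its nearest ethephon and water arrays were 0.26 apart at 24 h and 0.51 at 48 h (log2), and only Zm.4517.1.A1_at of the 49 had a larger smaller gap. A second probe set of the gene had a mean of 54.7, below the filter, and showed neither non-overlap.

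Soluble inorganic pyrophosphatase, encoded by IPP, splits the pyrophosphate that biosynthesis of nucleic acids, proteins and wall polymers releases. Its 3 probe sets were all among the 49, as was the unnamed Zm.1738.2.A1_at, which shares their identifier number, so these 4 count as 1 identifier. For Zm.1738.1.S1_a_at the signals were 4605, 5939 and 4077 at 0 h. They were 3269.5, 3634 and 3179 with water and 3002, 2378 and 2449 with ethephon at 24 h. They were 3851, 4444 and 3935 with water and 3056, 3212 and 2849 with ethephon at 48 h. All 0 h arrays lay above all 24 h arrays of either spray, and the ethephon arrays lay lowest at each time. The probe set Zm.1738.1.S1_x_at read 5333, 6450.3 and 4603 at 0 h, 4014, 4258 and 3881 with water and 3619.5, 2989 and 3177 with ethephon at 24 h, and 4653, 5072 and 4429 with water and 3767, 3844 and 3867 with ethephon at 48 h. For Zm.1738.1.S1_at the values were 4102, 4430.0 and 3456 at 0 h, 3433, 3615 and 3376 with water and 3175, 2870.4 and 2866 with ethephon at 24 h, and 3868, 4006 and 3412 with water and 3197, 3368 and 3405 with ethephon at 48 h. The order 0 h, then water, then ethephon held for the means of all 3 at 24 h. Their water levels were 1.29, 1.24 and 1.17 times the ethephon levels at 24 h and 1.34, 1.23 and 1.13 times at 48 h. Averaged over the sprays, Zm.1738.1.S1_a_at fell by 0.71 from 0 h to 24 h (log2, limma adjusted p = 0.00976). Zm.1738.1.S1_x_at fell by 0.58 (adjusted p = 0.0121). That average holds the ethephon arrays that chose the probe sets. With water alone their differences from 0 h were -0.52 and -0.42, without a test. The third, Zm.1738.1.S1_at, was not called (-0.31 ± 0.10, adjusted p = 0.0844). Both calls were lost without 0 h array 2 (log2 -0.55 and -0.45) and with the index as covariate (-0.25 and -0.20). With array weights or without 0 h array 3 the third was called as well.

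The gene rpl29 (Zm.457.1.S1_at, LOC541790) encodes L29, a protein of the large ribosomal subunit. It read 1930.3, 1935 and 933 at 0 h. At 24 h the values were 2317, 3017 and 2684 with water and 1737, 2254 and 1332 with ethephon. At 48 h the values were 2453, 2549.9 and 3004 with water and 1532, 2018 and 1954 with ethephon. Here the water arrays stood above all 0 h arrays at both times, and the ethephon arrays overlapped the 0 h arrays. The log2 difference, ethephon minus water, of rpl29 was -0.62 ± 0.27 (SE) at 24 h and -0.55 ± 0.27 at 48 h, so the water level was 1.53 and 1.46 times the ethephon level. The mean of both sprays lay above 0 h without a call (0.50 ± 0.24, adjusted p = 0.216 at 24 h and 0.54 ± 0.24, adjusted p = 0.29 at 48 h, limma). All 10 listed genes of ribosomal proteins and translation factors passed the filter. Of these, 6 had all ethephon arrays below all water arrays at 24 h and 1, rpl29, at 48 h, against 10.8% and 3.9% of all kept probe sets. Their median ethephon difference was -0.16 at 24 h and -0.10 at 48 h (log2), with 9 of 10 below 0 at each time. The sizes for rps6 (-0.24 and -0.08) and rps13 (-0.24 and -0.10), of the small subunit, were smaller than for rpl29, and rpl30 lay at -0.02 and 0.26. Against 0 h, 1 of the 10 was called, eif5a, a translation factor, at 24 h (log2 -0.26, limma adjusted p = 0.0326).

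The gene stm1 (Zm.497.1.A1_at, LOC541819) encodes a stomatin, a membrane protein of a family that forms scaffolds in membranes. Its 0 h signals were 726, 671 and 618. At 24 h they were 469.7, 555 and 546 with water and 398, 404 and 394 with ethephon. At 48 h they were 793, 687 and 628 with water and 521, 507 and 618 with ethephon. The 24 h ethephon arrays were nearly equal and lay below all others, and no 24 h array reached the 0 h range. The log2 difference, ethephon minus water, of stm1 was -0.39 ± 0.15 (SE) at 24 h and -0.36 ± 0.15 at 48 h, so the water level was 1.31 and 1.28 times the ethephon level. Averaged over the sprays stm1 fell by 0.55 (log2) from 0 h to 24 h (limma adjusted p = 0.029, 0.0117 to 0.58 over the alternatives). That call was lost without 0 h array 1 or 2, without ethephon array 1 or 2 or water array 1 of 24 h, with a minimum mean of 500, with the replicate block and with the index (log2 -0.51), while the difference at 48 h was -0.12 ± 0.13, adjusted p = 0.693. For LOC541781 (Zm.455.1.S1_a_at), which carries no descriptive gene name here, the 0 h signals were 974, 1250.1 and 1027. They were 685, 922 and 843 with water and 671, 641 and 639.7 with ethephon at 24 h. They were 1194, 943 and 1233 with water and 848, 709 and 927 with ethephon at 48 h. The nearest arrays of the sprays were 0.029 apart at 24 h and 0.025 at 48 h (log2), so the separation was narrow at both times. The log2 difference, ethephon minus water, of LOC541781 was -0.32 ± 0.17 (SE) at 24 h and -0.44 ± 0.17 at 48 h, so the water level was 1.25 and 1.36 times the ethephon level. With the sprays averaged it fell by 0.57 (log2) from 0 h to 24 h (limma adjusted p = 0.0422, 0.0347 to 0.664 over the alternatives). With water alone the difference was -0.41, without a test. Its call was kept in 6 of 15 fits that left out 1 array and was lost without any 1 of the 0 h arrays, any 1 of the 24 h ethephon arrays, water array 1 or 3 of 24 h or water array 1 of 48 h, and with no filter, array weights, the block or the index (log2 -0.43). A second probe set of LOC541781 lay lower with ethephon by a log2 difference of -0.27 at 24 h and -0.36 at 48 h, with arrays that overlapped.

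**Figure D4:**
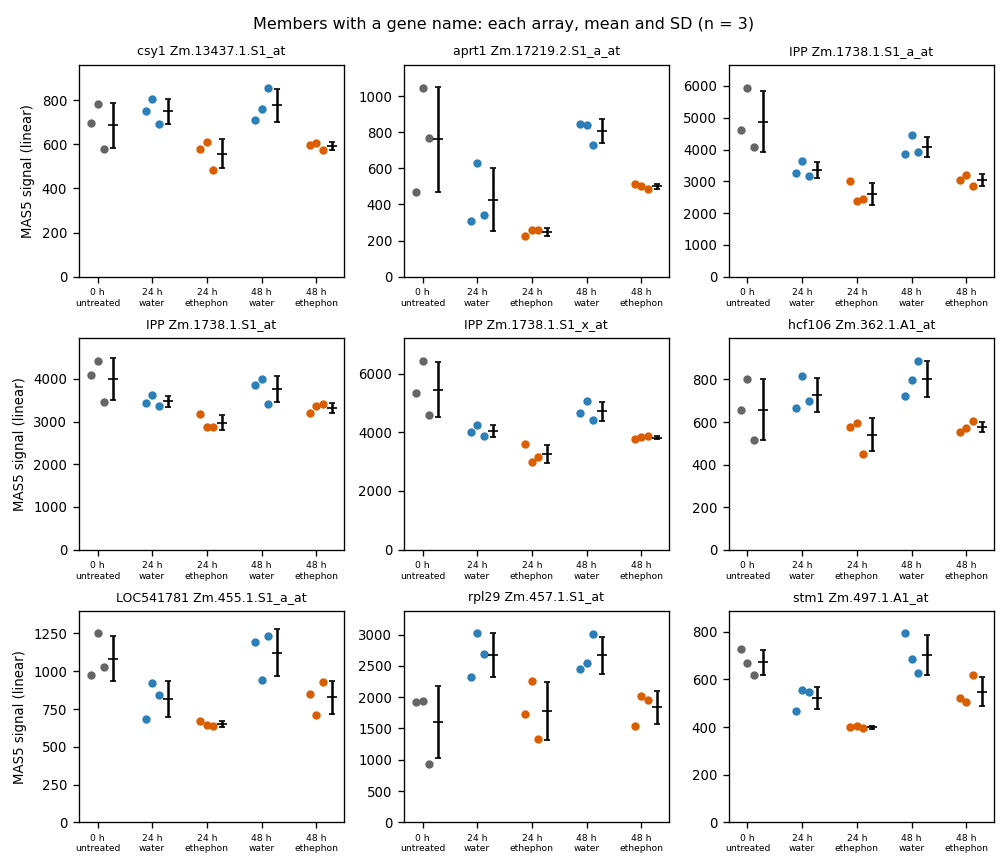
Signal (linear MAS5, axis from 0) of the 9 probe sets with a gene name on each of the 15 arrays, with mean and SD of each group beside the points (n = 3). In each panel the orange ethephon points lie below the blue water points of the same time, as selected; the 0 h means (grey points) are the highest for the 3 IPP probe sets and the lowest for rpl29.

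Among the 40 probe sets without a gene name, the widest ethephon difference belonged to Zm.4517.1.A1_at. Its 0 h signals were 432, 459.5 and 130.0. It read 258, 795 and 474 with water and 116, 67.1 and 54.5 with ethephon at 24 h. It read 366, 145 and 316 with water and 68.6, 88.9 and 111 with ethephon at 48 h. The ethephon means of 79.1 and 89.4 lie below the filter, so the ratios of 6.12 and 2.92 are uncertain. The next, Zm.6822.2.S1_a_at, read 1248, 2333 and 603 at 0 h, 199, 642 and 409 with water and 188, 131 and 76.2 with ethephon at 24 h, and 546, 791 and 525 with water and 259, 190.2 and 415 with ethephon at 48 h. Its water level was 3.03 and 2.23 times the ethephon level, and at 24 h water arrays 1 and 3 lay below all 0 h arrays. It had the largest fall of the 49 from 0 h (log2 -2.49 ± 0.46, adjusted p = 0.0113 at 24 h with the sprays averaged, limma), but the ethephon mean of 24 h was below the filter, and the call was lost without 0 h array 2 (log2 -2.01) and with the index as covariate (-1.05, adjusted p = 0.67). The second widest difference at 48 h was that of Zm.16189.3.A1_at, with 1621, 1803 and 2584 with water and 1604, 740.2 and 547 with ethephon at 48 h and a water level 2.27 times the ethephon level. It was picked after its values were seen.

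The fall from 0 h with the lowest p was that of Zm.1682.1.A1_a_at. It read 6672, 8479 and 5848 at 0 h, 3809, 4271 and 4089 with water and 3255, 3020.0 and 2478 with ethephon at 24 h, and 4329, 4566 and 5198 with water and 4009, 3681 and 4034 with ethephon at 48 h. All untreated arrays lay above all others. With the sprays averaged it fell by 1.01 (log2) to 24 h (limma adjusted p = 0.0012, 2.02-fold) and by 0.69 to 48 h (adjusted p = 0.0136). With water alone the differences from 0 h were -0.77 and -0.56, without a test. The 24 h call held in each of 15 fits that left out 1 array and was lost with the index as covariate (-0.73, adjusted p = 0.338), while its 48 h call was also lost without 0 h array 1 or 2. The only other call at 48 h was Zm.5699.1.A1_at (-0.57 ± 0.12, adjusted p = 0.0333), which kept it in 7 of 15 such fits. The largest differences upward from 0 h were those of Zm.7276.1.S1_at and Zm.9118.1.A1_at. The first read 474, 315 and 206 at 0 h, 815, 1061 and 699 with water and 523, 650.3 and 229.7 with ethephon at 24 h, and 613, 634 and 772 with water and 311, 449 and 590.2 with ethephon at 48 h. The second read 872, 980.2 and 379.7 at 0 h, 1211, 1939.9 and 1231 with water and 868, 1149 and 670.3 with ethephon at 24 h, and 1339.6, 1151 and 1569 with water and 866, 1063 and 1095 with ethephon at 48 h. In both the water arrays of 24 h and 48 h lay above all 0 h arrays and the ethephon arrays overlapped them. Neither was called against 0 h (0.94 ± 0.34, adjusted p = 0.113; 0.70 ± 0.29, adjusted p = 0.161; limma, 24 h), though Zm.7276.1.S1_at was when ethephon array 3 of 24 h was left out (log2 1.17).

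The other probe sets called lower at 24 h against 0 h were also tested with the sprays averaged (limma). Zm.3147.1.S1_at lay at -0.82 (adjusted p = 0.0138), Zm.7012.4.A1_x_at at -0.77 (0.0326) and Zm.7012.7.A1_x_at at -0.57 (0.0465). Zm.4218.1.S1_at lay at -0.54 (adjusted p = 0.0309) and Zm.6438.1.A1_at at -0.45 (0.0469). When 1 array was left out, the call was kept in 14 of 15 fits for Zm.3147.1.S1_at, in 9 for Zm.7012.4.A1_x_at and Zm.4218.1.S1_at, in 3 for Zm.7012.7.A1_x_at and in 0 for Zm.6438.1.A1_at. With the index as covariate all 5 calls were lost, with log2 differences of -0.30 to -0.46. Without 0 h array 2 all 5 were lost as well, and without 0 h array 1, ethephon array 2 or 3 or water array 1 of 24 h all but that of Zm.3147.1.S1_at.

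The brightest of the 49 came from 1 transcript identifier, Zm.7012, with a mean signal of 7918 for Zm.7012.7.A1_a_at and 7836 for Zm.7012.8.A1_x_at. The first read 10503, 8643 and 8272 at 0 h, 7650.1, 9030.2 and 7751 with water and 7109.9, 5903 and 4690.2 with ethephon at 24 h, and 8927, 9830.1 and 8463 with water and 6083, 7970.1 and 7945 with ethephon at 48 h. For the second the values were 10942, 9460.4 and 8112 at 0 h, 7267, 9032 and 7447 with water and 6858, 5376 and 4569 with ethephon at 24 h, and 9160.0, 9851 and 8213 with water and 5882, 7529.7 and 7839 with ethephon at 48 h. Both patterns are nearly the same, with ethephon array 3 of 24 h lowest. In all, 4 of 8 kept probe sets of this identifier were among the 49, out of 13 on the array, and the within-group deviations of the 4 correlated at 0.926 to 0.993. The others that were kept did not all follow. Zm.7012.5.A1_a_at lay at -0.30 and -0.18 with overlap at 48 h, Zm.7012.2.A1_at at -0.54 and -0.47 with overlap at both times, Zm.7012.3.S1_at at -0.18 and 0.56, and Zm.7012.12.S1_a_at at 0.19 and -0.10.

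Several of the 49 are thus repeated measurements. Over the 13 pairs with the same identifier number the deviations from group means correlated with a median of 0.926 (-0.31 to 0.993, 15 arrays), and over the 1163 other pairs with a median of 0.315 (quartiles 0.0397 and 0.549). The lowest value came from a pair of Zm.1738 probe sets. These correlations describe arrays that share RNA and scaling. Probe sets whose names mark possible hybridisation with several transcripts were more frequent: the suffix x on 10.2% of the 49 against 3.97% of kept probe sets, the suffix a on 14.3% against 9.1%, and the suffix s on 4.08% against 1.93%. For those the signal may sum related transcripts. The mean signals of the 49 ran from 246.4 to 7918 with a median of 635, against 958 over all kept probe sets, and 7 of the 49 had a group mean below the filter, 6 of them with ethephon at 24 h.

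The edge of the rule was close for many. The smaller of both gaps between the nearest ethephon and water arrays was under 0.05 (log2) for 20 of the 49, with a median of 0.06. Just inside lay Zm.18358.1.A1_at, whose lowest water array at 48 h read 487.8 and highest ethephon array 487.5, and Zm.17515.1.S1_at, with 357.5 and 357.1. Just outside lay a probe set of the elongation factor gene LOC542581 (EF1-A), with 10259, 9962 and 10175 after water and 9304, 9324 and 9970.4 after ethephon at 48 h, and Zm.5145.1.S1_at, with 977, 1131 and 1005 and 979, 943 and 933 at 24 h. At the filter, ZmAffx.763.1.A1_at (mean 246.4) and Zm.4517.1.A1_at (258.7) were inside, and Zm.5369.1.A1_at (201.0) and Zm.985.1.A1_at (176.3) outside. Leaving out 1 array eased the rule, so all 49 still met it and the number rose to between 55 and 269. It was 269 without ethephon array 3 of 48 h, 178 without water array 1 of 24 h, 136 and 131 without water arrays 3 and 2 of 48 h, 105 and 91 without ethephon arrays 2 and 1 of 24 h, and 75 without ethephon array 2 of 48 h. With arrays scaled to the same median 64 probe sets met the rule and 34 of the 49 were among them; after quantile normalization 59 met it and 38 of the 49 were among them.

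Other gene lists held 0 of the 49. For their counts of genes with all ethephon arrays below all water arrays, the shares over all kept probe sets were 10.8% at 24 h and 3.9% at 48 h. Meristem and knotted genes (3 kept) had 2 with all ethephon arrays below water at 24 h and 1 at 48 h, with medians of -0.27 and -0.02 (for this and the next lists, log2 ethephon minus water at 24 h and 48 h). Chromatin genes (19 kept) had 5 at 24 h and 0 at 48 h, with medians of -0.31 and -0.07. Cytokinin genes (9 kept) had 3 and 0 (-0.06 and 0.21). RR7 is not among these 9, and expB8 is not among the wall and expansin genes below, as the rule leaves both out. Cell cycle genes (7 kept, 0.17 and 0.02), auxin genes (4, 0.11 and 0.01), cytoskeleton genes (9, -0.03 and -0.09), and wall and expansin genes (3, -0.18 and -0.28) had 0 at either time. Within the cell cycle list the DNA replication genes pcna1 (-1.03 and -1.02) and pcna2 (-0.66 and -0.67) lay lower with ethephon with overlapping arrays, while cycD2, of a D-type cyclin, lay at 0.73 and 0.31 and krp1, of a cyclin-dependent kinase inhibitor, at 0.17 and 0.44. Aquaporins (10 kept, 0.23 and 0.07) had 1 at 48 h. Ethylene genes and gibberellin genes kept 1 each, at 1.08 and 0.54 and at 1.71 and 0.64. 

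Markers of other cells were measured alongside. Green leaf genes (5 kept) had ethephon medians of -0.02 at 24 h and -0.04 at 48 h, and their summed signal was 9949 to 11373 with water and 8065 to 14535 with ethephon at 24 h. Vascular and secondary wall genes (4 kept) had medians of 1.32 and 0.67, all above 0, with sums of 682 to 1363 with water and 834 to 21984 with ethephon at 24 h. Epidermis and wax genes (3 kept) had 1.37 and 0.64, with sums of 5000.0 to 6510.0 and 8670.0 to 13294. At 48 h the sums were 2507 to 5933 with water and 1358 to 16158 with ethephon for vascular genes, 6021 to 10501 and 5439 to 17682 for epidermis genes, and 9097 to 16601 and 9048 to 14418 for green leaf genes. At 0 h the sums were 10104 to 21056 for green leaf, 723 to 6964 for vascular and 6042 to 11885 for epidermis genes. The part of these cell types in the lower signals of the 49 was not tested.

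The level of the 49 also went with the 3'/5' index at 48 h, where the ethephon arrays had the higher index and the lower level. At 24 h the index was 2.51 to 3.09 with water and 2.86 to 3.16 with ethephon. The part of RNA quality in the ethephon differences was not tested, since the values that chose the probe sets also fix the order of the sprays.

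**Figure D5:**
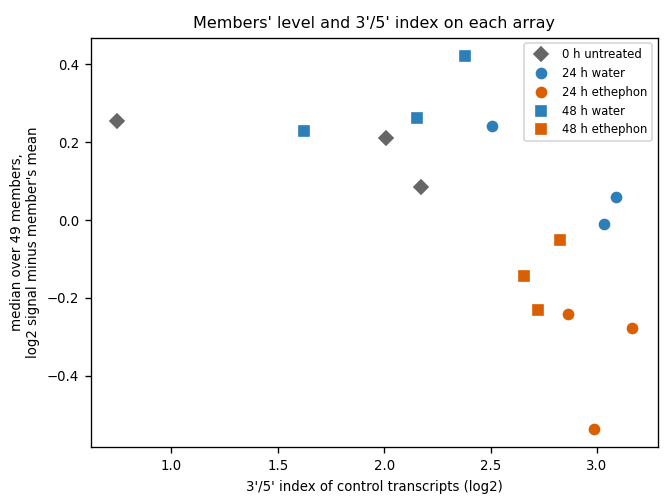
Median over the 49 probe sets of the log2 signal minus the mean of each probe set (vertical) against the 3'/5' index (log2, horizontal) on each of the 15 arrays; colour and shape give the group. The orange ethephon points lie below the blue water points of the same time (circles 24 h, squares 48 h), as the rule sets, and at 48 h they also lie further right.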

How the data were processed

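RNA of 15 pools of maize internode meristem was measured on Affymetrix maize arrays. The values used were linear MAS5 signals, a form of intensity, as deposited by the authors, per the submitters' processing notes. Neither the MAS5 version nor its scaling target is given in the sources used here. Detection calls were not used here. All 15 sample columns were used. Signals were taken to log2 without offset or further normalization, and probe sets with a mean of at least 218 were kept. The fit, 1 mean for each of 5 groups, was made in R 4.3.3 by limma 3.58.1 (moderation along the mean, residual degrees of freedom 10, prior 2.62), with Benjamini-Hochberg adjustment over 10577 probe sets and a threshold of 0.05. Ethephon differences are descriptions. Tests were made for the mean of the water and ethephon groups against 0 h, at 24 h and 48 h, and between those times. Folds are 2 to the power of the log2 differences. The fit was tested on simulated data. Counts and figures were made in Python 3.11.15 with matplotlib 3.10.9 and pandas 2.3.3.

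Gene names came from a platform annotation, updated through RefSeq (Zm-B73-REFERENCE-NAM-5.0). The annotation gave no descriptions, so the gene roles named in the text come from general knowledge of the symbols. Of the probe sets 1452 had 1 symbol, 1 had several and 16168 had none. No coordinates or sequences were used here, so a planned search for promoter motifs was not made. The members and lists were chosen with earlier results of these data known. Every named member was described. Of the unnamed members those 2 with the highest signal, the 2 with the largest and the 2 with the smallest difference from 0 h at 24 h, and the 2 nearest the filter on each side were described. Other probe sets were picked after their values were seen, also the last members called and those at the edge of the non-overlap. Arrays with the same replicate number did not deviate together at the median (-0.054 over 30 pairs, correlations -0.543 to 0.633, 10 above 0.1). A pairing by number is thus not shown, though it is not excluded, and the main fit used none. Alternatives were an offset of 32, other filters, quantile normalization, scaling to the same median, array weights, the replicate number as a block, the 3'/5' index as a covariate, and leaving out each array. Alternatives for the sign of the ethephon differences were added after seeing the data and support nothing here.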

Additional observations from a re-analysis of the deposited data

How the results depend on the processing

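Over all kept probe sets 658 were called at 24 h against 0 h, with 1020 without a filter, 411 with the replicate block and 5 with the 3'/5' index as covariate, and 124 to 688 when 1 array was left out. Of the 49, 12 were called lower, with 7 with the replicate block, 0 with the index, and 1 to 14 when 1 array was left out. Called higher were 0, with 1 without a filter and 0 to 1 when 1 array was left out. At 48 h 170 were called over all, with 306 with array weights, 46 with the index and 87 to 217 when 1 array was left out. Of the 49, 2 were called lower there, with 1 after quantile normalization, 1 with the replicate block, 0 with the index and 0 to 2 when 1 array was left out. Between the times 0 were called, with 1 without a filter, 2 with array weights and 0 to 3 when 1 array was left out. The number of probe sets that met the rule was 55 to 269 when 1 array was left out, without a filter 73, with a minimum mean of 100 it was 63 and with 500 it was 35. The cause of these moves was not tested. For the 49 probe sets, the 14 calls against 0 h gave 321 values under alternatives, of which 97 lost the call and 0 changed sign. Of 3018 values of differences that were not called, 27 gained a call and 117 changed sign. The ethephon differences changed sign in 0 of the alternatives run on them, which the rule nearly fixes. Whether replicate numbers pair samples is not known, so calls lost with the block say nothing of the size of an effect. Signals near the filter and groups of 3 pools limit what can be read from single probe sets.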

Other observations

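Beside the 49, 101 kept probe sets lay higher with ethephon than with water on all arrays at both times.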
